A study of Mus musculus with 8 samples.

Results

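Glutathione S-transferases join glutathione to reactive, electrophilic molecules, which are then exported from the cell and excreted as conjugates. The soluble enzymes fall into classes named after Greek letters, and a separate microsomal family sits in membranes. Many of their genes respond to the transcription factor Nrf2 through antioxidant response elements. In human tissue, alpha class enzymes are known to take part in detoxifying the reactive ester that is formed from PhIP, a heterocyclic amine of cooked meat.

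The 10 genes described here were chosen by name. They are Gsta3 and Gsta4 of the alpha class, Gstm1, Gstm2 and Gstm3 of the mu class, Gstp1 of the pi class, Gstk1 of the kappa class, Gsto1 of the omega class, Gstt1 of the theta class and the microsomal Mgst1. They are 10 of 15596 genes that could be named on the array. Every mouse probe whose RefSeq accession belongs to one of them was taken, which gave 15 probes. Of these 14 probes, for 9 genes, were found on at least 3 arrays and were tested. A probe counted as found on an array if the scanner software gave its spot no negative flag. The probe of Gstm3 was not found on any array.

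The series holds 8 arrays, 1 per mouse, of scraped colon crypt epithelium. All mice were males with the humanized CYP1A (hCYP1A) genotype on a C57BL/6 background, 8 weeks old and fed AIN93M diet. A single gavage gave 5 mice PhIP at 200 mg/kg and 3 mice PBS, and tissue was taken 24 hours later. The comparison asks which colon genes respond to this dietary carcinogen. The labels give no further detail of the humanized locus, and the array's probes are for mouse genes.

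Of 35078 mouse probes, 53.8% to 57.1% were found on each of 7 arrays. The scan of PhIP mouse 1, called the dim array here, reached 21.4% and was scanned at a gain of 700 against 650 for the others. Its median correlation with the other arrays was 0.766, against 0.971 to 0.982 for each of the others. The authors' processed matrix holds, in place of that scan, 1 column that equals none of the scans. Results are therefore given for 8 arrays and for the 7 without the dim one, and in places for the authors' 8 columns turned back to intensities. Among epithelial markers, Epcam, Cdh1, Krt8, Krt18, Krt19, Cldn7, Slc26a3 and Aqp8 were tested, 8 of 11 listed, while Krt20 and Vil1 were not found on any array. All 9 fibroblast and 7 smooth muscle markers listed were also tested, so the scraped tissue held RNA of other cells.

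Gsta3 was the 1 gene of 9 whose groups did not overlap, at 1.64 times the PBS level (95% interval 1.27 to 2.13, 3 PBS and 5 PhIP mice), and it did not pass the test over all features. No transferase rose or fell by limma after Benjamini-Hochberg adjustment, with 8 arrays or with 7. Over all 15880 features 2 passed with 8 arrays, or 0.0126%, and of 15868 features 5 passed with 7 arrays, or 0.0315%. At an unadjusted limma p under 0.05, 1 of 9 transferases (Gsta3) stood out with either set, against 3.08% of all features with 8 arrays and 9.26% with 7. Groups did not overlap, with PhIP higher, for 1 of 9 transferases, against 3.66% of all features with 8 arrays and 5.97% with 7. No transferase was lower without overlap, against 2.08% and 2.90%. Tested probe by probe, 0 of 14 transferase probes passed, against 0.005% of all probes with 8 arrays and 0.035% with 7. The Gsta3 probe was the 1 of 14 whose groups did not overlap, with PhIP higher, against 3.25% and 5.41% of all probes, and none was lower (2.93% of all probes with 7 arrays). With the authors' intensities 0 of 9 transferases passed, against 0.0756% of all features, and none was lower without overlap, against 2.35%.

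Gsta3 encodes an alpha class enzyme that, in mouse liver, is known for inactivating the epoxide of aflatoxin. Its background-subtracted intensity was 818, 646 and 781 in PBS mice 1 to 3, and 1146, 1400, 1376 and 1032 in PhIP mice 2 to 5. On the dim array it was 252. After normalization between arrays the log2 intensities were 9.63, 9.10 and 9.50 in the PBS mice and 10.28, 10.09, 10.24, 10.07 and 9.96 in PhIP mice 1 to 5. Every PhIP mouse thus lay above every PBS mouse, the dim array included. The means were 9.41 ± 0.27 (SD, n = 3) and 10.13 ± 0.13 (SD, n = 5). This amounts to a log2 fold change of 0.72 (SE 0.16, limma adjusted p = 0.837).

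Without the dim array the Gsta3 difference in log2 was 0.67 (SE 0.14, limma adjusted p = 0.259), or 1.60-fold with an interval of 1.28 to 1.99. By unadjusted p the gene ranked 31 of 15880 features with 8 arrays and 86 of 15868 with 7. With the authors' intensities it was 0.74 (SE 0.14, limma adjusted p = 0.141), and the groups again did not overlap, against 4.74% of all features with PhIP higher there. Scaling each array to its percentile 75, in place of matching whole distributions, gave 0.38 (SE 0.39), and this scaling moved the median of all features to -0.34. Relative to that median Gsta3 stood at 0.72.

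Arrays also differed by slide number range and by whether the scan name notes a second dip of the slide. With slide range as a block the Gsta3 value was 0.63 (SE 0.25), and within the range that holds both groups, with 1 PBS array, it was 0.63 (SE 0.23). Within the re-dipped arrays, 2 PBS and 2 PhIP with the dim one among them, it was 0.90 (SE 0.36). Within the arrays not re-dipped, with 1 PBS array, it was 0.54 (SE 0.14). The direction was therefore shared by all of these subsets, and none of them passed over all features.

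Summed marker intensities of several cell types also differed between the groups. The summed intensity of the 8 tested epithelial markers was 36950 to 40720 in PBS mice and 43650 to 48810 in PhIP mice. That of the 9 fibroblast markers was 29580 to 45050 in PBS mice and 21860 to 27640 in PhIP mice. Summed immune markers were 3316 to 4701 and 1766 to 2886, and erythroid markers 9532 to 13810 and 247.2 to 7087. In none of these 4 lists did the ranges overlap, and how often sums of other gene sets do so was not counted. Each sum adds linear intensities, so its brightest genes weigh most. In PBS mouse 1 the log2 intensity was 13.04 for Hba-a1 and 9.56 for Hbb-b2, the next brightest erythroid marker. Cd74 and H2-Ab1 had 11.10 and 10.52 there, and Lyz2, the next brightest immune marker, 8.76. Smooth muscle markers (51020 to 63590 and 28440 to 54960), goblet cell markers (4798 to 8785 and 3086 to 4954), endothelial markers (998.6 to 1223 and 891.9 to 1813) and adipocyte markers (2342 to 6129 and 3851 to 7076) overlapped. Ptprc, a marker of all white blood cells, was not found on any array. Single genes went both ways in the epithelial, immune, erythroid and endothelial lists with 8 arrays. All 7 smooth muscle markers and all 3 tested goblet cell markers had negative values with 8 arrays and with 7. All 5 tested adipocyte markers had positive values with 8 arrays. With 7 arrays 4 were positive and 1 negative, as Fabp4 turned from 0.09 (SE 0.55) to -0.28 (SE 0.36). With 8 arrays Plin1 lay at the floor in 3 PBS mice and 1 PhIP mouse, and the goblet cell marker Clca1 in 1 PBS mouse and 3 PhIP mice. With 8 arrays 5 epithelial markers had positive values and 3 negative. They ran from 0.49 (SE 0.14) for the keratin Krt18 to -0.97 (SE 0.86) for the transporter Slc26a3, at the floor on the dim array. Epcam had -0.10 (SE 0.26) and Krt19 -0.15 (SE 0.29). With 7 arrays 6 were positive and 2 negative, with 0.10 (SE 0.09) for Epcam and 0.08 (SE 0.08) for Krt19. Aqp8 turned from 0.31 (SE 0.60) with 8 arrays to -0.16 (SE 0.26) with 7. All 9 fibroblast markers had negative values with 8 arrays and with 7, among them the collagen Col3a1 at -1.34 (SE 0.30) with 8. Of the 6 tested immune markers 2 had positive and 4 negative values with 8 arrays, and all 6 had negative values with 7. With 8 arrays the antigen presentation genes Cd74 and H2-Ab1 had -1.12 (SE 0.27) and -0.89 (SE 0.20), whereas Cd3e and Itgam had 0.39 (SE 0.59) and 0.09 (SE 0.44). With 7 arrays Cd74 and H2-Ab1 had -0.97 (SE 0.21) and -0.81 (SE 0.18), and Cd3e and Itgam -0.08 (SE 0.16) and -0.25 (SE 0.16). Of the 4 tested erythroid markers the globin genes Hba-a1 and Hbb-b2 had -4.67 (SE 1.79) and -3.81 (SE 0.99) with 8 arrays. Hbb-b2 was at the floor in 3 PhIP mice. Slc4a1 and Alas2 had 0.33 (SE 0.20) and 0.02 (SE 0.45) with 8 arrays, and 0.42 (SE 0.17) and -0.24 (SE 0.33) with 7. No gene of these 8 lists passed over all features. The part of these shifts in the Gsta3 difference was not tested, and in bulk tissue fewer cells of a type cannot be told apart from less RNA per cell.

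The promoter windows of the genes, from RefSeq on build GRCm38.p6, cover 250 bases before to 50 bases after the annotated start. Of the 10 genes 9 had a window, and 2 of these held the antioxidant response element core, TGACNNNGC, searched on both strands, in 1 window each. The same letters occur in 12.4% of 32851 windows of this length. They are shown for Gsta3, whose groups did not overlap, and for Mgst1, the other gene with a match, and capitals mark the match.
Gsta3, chr1:21240335-21240634, plus strand: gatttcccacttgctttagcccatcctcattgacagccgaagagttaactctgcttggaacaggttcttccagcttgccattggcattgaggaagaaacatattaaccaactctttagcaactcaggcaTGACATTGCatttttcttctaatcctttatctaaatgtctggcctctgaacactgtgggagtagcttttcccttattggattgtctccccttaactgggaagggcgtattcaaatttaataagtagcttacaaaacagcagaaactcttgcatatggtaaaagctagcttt
Mgst1, chr6:138140277-138140576, plus strand: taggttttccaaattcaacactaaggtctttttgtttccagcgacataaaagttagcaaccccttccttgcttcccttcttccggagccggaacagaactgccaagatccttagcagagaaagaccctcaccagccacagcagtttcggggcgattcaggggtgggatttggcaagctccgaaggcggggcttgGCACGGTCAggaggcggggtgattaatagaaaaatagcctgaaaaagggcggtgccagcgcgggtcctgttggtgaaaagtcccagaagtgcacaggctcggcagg

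The Gsta3 match begins at position -121 from the start and reads with the gene, and the Mgst1 match begins at -56 and lies on the opposite strand. The shorter core of the xenobiotic response element, GCGTG, was present in windows of Gstm1 and Gstp1, and in 32.4% of all windows. These are matches of letters only, and other forms of either element were not searched.

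**Figure D1:**
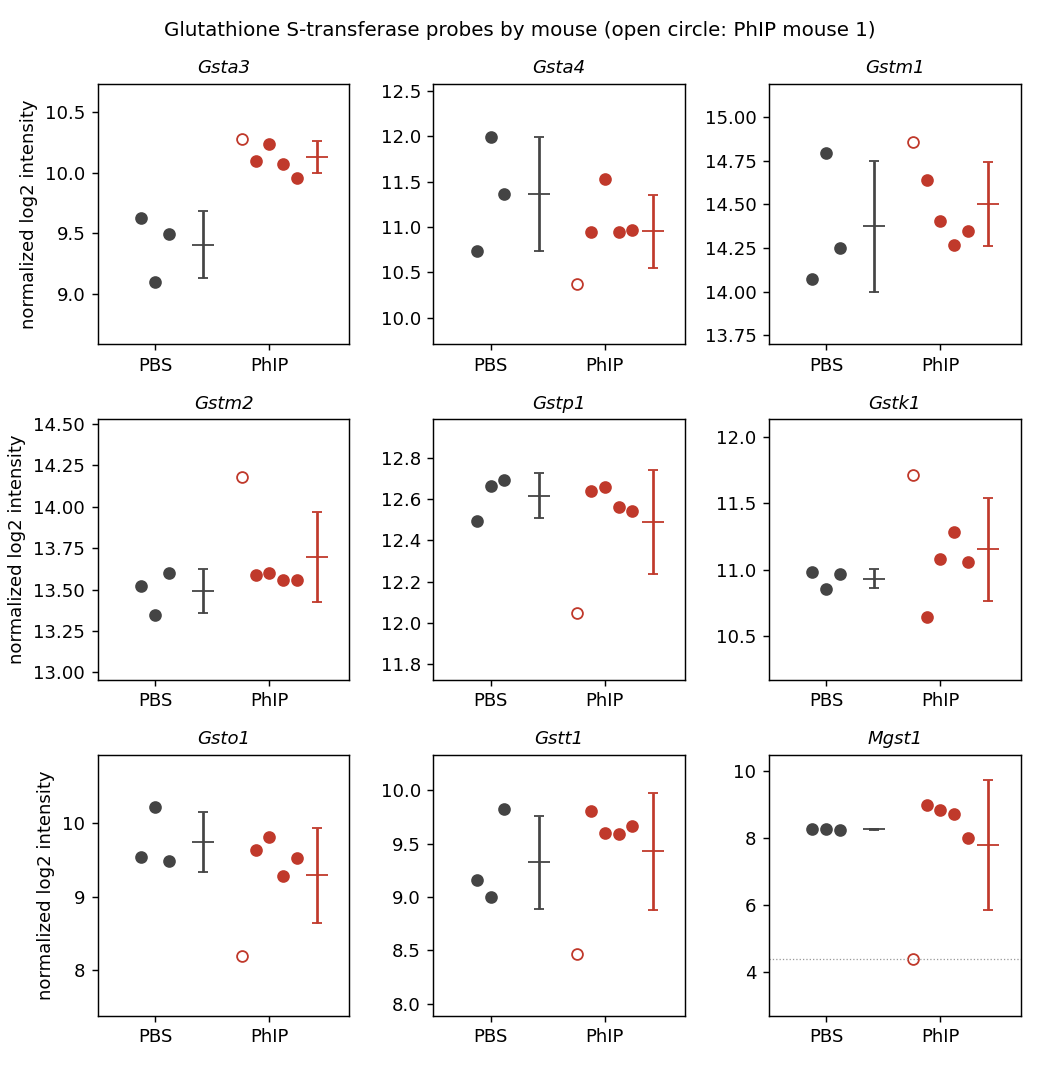
Normalized log2 intensity of the brightest tested probe of each of 9 glutathione S-transferases, 1 point per mouse, in PBS (grey, n = 3) and PhIP (red, n = 5) mice, with bars for the mean ± SD and an open circle for the dim array of PhIP mouse 1. Each panel has its own axis, and the dotted line in the Mgst1 panel is the floor of 4.41. In the Gsta3 panel all PhIP mice lie above all PBS mice.

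Gsta4, the other alpha class gene, encodes an enzyme known for conjugating hydroxynonenal, a product of lipid peroxidation. Its log2 intensities were 10.74, 11.996 and 11.37 in the PBS mice and 10.38, 10.94, 11.53, 10.94 and 10.97 in PhIP mice 1 to 5. The groups overlapped throughout, and PBS mice differed among themselves more than the group means did. PhIP minus PBS came to -0.42 on the log2 scale (SE 0.32, limma adjusted p = 0.837) with 8 arrays and -0.27 (SE 0.29) with 7. Over the 7 arrays this gene had the widest spread of the 9, 2.38-fold from the lowest to the highest mouse.

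The mu class genes lie next to each other on chromosome 3, and their products conjugate a broad range of aromatic electrophiles. Gstm1 had log2 intensities of 14.07, 14.79 and 14.25 in the PBS mice and 14.86, 14.64, 14.40, 14.27 and 14.35 in the PhIP mice. PBS mouse 2 lay above 4 of the 5 PhIP mice, and the log2 fold change was 0.13 (SE 0.22) with 8 arrays and 0.04 (SE 0.18) with 7. The second Gstm1 probe was near background, at intensities of 84, 101 and 52 in PBS mice and 1 to 101 in PhIP mice, and had -0.40 (SE 0.51) and -0.08 (SE 0.36).

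Gstm2 was among the steadiest of the genes once the dim array was set aside. With all 8 arrays normalized together, its log2 intensities were 13.52, 13.35 and 13.60 in PBS mice. They were 13.59, 13.60, 13.56 and 13.56 in PhIP mice 2 to 5, against 14.18 on the dim array. Without that array, and with the other 7 normalized anew, the log2 fold change was 0.09 (SE 0.07), with a 95% interval of 0.94 to 1.20 in fold. The second Gstm2 probe had intensities of 647, 666 and 449 in PBS mice and of 375 to 739 in PhIP mice 2 to 5, but 5 on the dim array. Its log2 fold change was -0.92 (SE 0.94) with 8 arrays and -0.13 (SE 0.20) with 7, and the probes differed in sign in both sets. Gstm3 had intensities of 12, 10 and 9 in PBS mice and -2 to 9 in PhIP mice. It was not well above background in any mouse, so no fold is given.

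Gstp1 encodes the pi class enzyme, which is also known as a binding partner of the kinase JNK. Its brightest probe had log2 intensities of 12.49, 12.66 and 12.69 in the PBS mice and 12.64, 12.66, 12.56 and 12.54 in PhIP mice 2 to 5, with 12.05 on the dim array. The groups overlapped within a narrow band, and over 7 arrays the highest mouse was 1.15 times the lowest, the smallest spread of the 9 genes. The log2 fold change was -0.13 (SE 0.16) with 8 arrays and -0.02 (SE 0.07) with 7, where the interval in fold was 0.88 to 1.11. The other Gstp1 probes had 0.20 (SE 0.11) and 0.11 (SE 0.15) with 7 arrays. The neighbouring gene Gstp2 is closely related to Gstp1, and without the probe sequences their signals cannot be told apart.

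Gstk1 encodes the kappa class enzyme of mitochondria and peroxisomes. Its log2 intensities were 10.98, 10.85 and 10.97 in the PBS mice and 11.71, 10.64, 11.08, 11.29 and 11.05 in the PhIP mice. PhIP mouse 2 lay below all PBS mice and the other 4 above them. The log2 fold change was 0.22 (SE 0.22) with 8 arrays and 0.08 (SE 0.14) with 7. The second probe gave -0.02 (SE 0.24) and 0.13 (SE 0.15), and like the first it was lowest in PhIP mouse 2 and highest in PhIP mouse 4 among the 7 arrays.

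Gsto1 encodes the omega class enzyme, which reduces dehydroascorbate. It had log2 intensities of 9.55, 10.22 and 9.48 in the PBS mice, 9.64, 9.82, 9.28 and 9.53 in PhIP mice 2 to 5, and 8.19 on the dim array, where its spot was not found. The groups overlapped, with a log2 fold change of -0.46 (SE 0.38) with 8 arrays and -0.18 (SE 0.20) with 7.

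Gstt1 encodes a theta class enzyme that acts on small halogenated compounds. Its log2 intensities were 9.16, 9.003 and 9.82 in PBS mice 1 to 3, 9.81, 9.60, 9.59 and 9.67 in PhIP mice 2 to 5, and 8.46 on the dim array. The 4 PhIP mice lay above PBS mice 1 and 2 but not above PBS mouse 3. PhIP minus PBS came to 0.10 (SE 0.34) with 8 arrays and 0.34 (SE 0.19, limma adjusted p = 0.634) with 7. PBS mouse 3 is the 1 PBS array in the slide number range of the PhIP arrays, and within that range the value, with the dim array, was -0.40. Slide range and PBS mouse can therefore not be told apart for this gene.

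Mgst1 encodes a membrane-bound transferase and peroxidase of the endoplasmic reticulum and outer mitochondrial membrane. Its PBS mice were nearly equal, with intensities of 330, 367 and 336 and log2 values of 8.28, 8.28 and 8.24. PhIP mice 2 to 5 had intensities of 529, 540, 555 and 263 and log2 values of 9.002, 8.86, 8.72 and 8.01. The spot was not found on the dim array, which lay at the floor of 4.41. Thus 3 PhIP mice lay above the PBS mice and PhIP mouse 5 and the dim array below.

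The sign of the Mgst1 difference depended on the dim array. PhIP minus PBS came to -0.47 (SE 1.00) with 8 arrays, in part a bound because of the floor, and 0.38 (SE 0.23, limma adjusted p = 0.659) with 7. With the authors' intensities it was 0.59 (SE 0.31, limma adjusted p = 0.522). In those data 4 of the 5 PhIP columns lay above the 8.43 to 8.46 of the PBS mice, the highest being the column that equals no scan, at 9.90. A 95% interval of 0.90 to 1.88 in fold with 7 arrays does not show that PhIP left this gene unchanged.

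**Figure D2:**
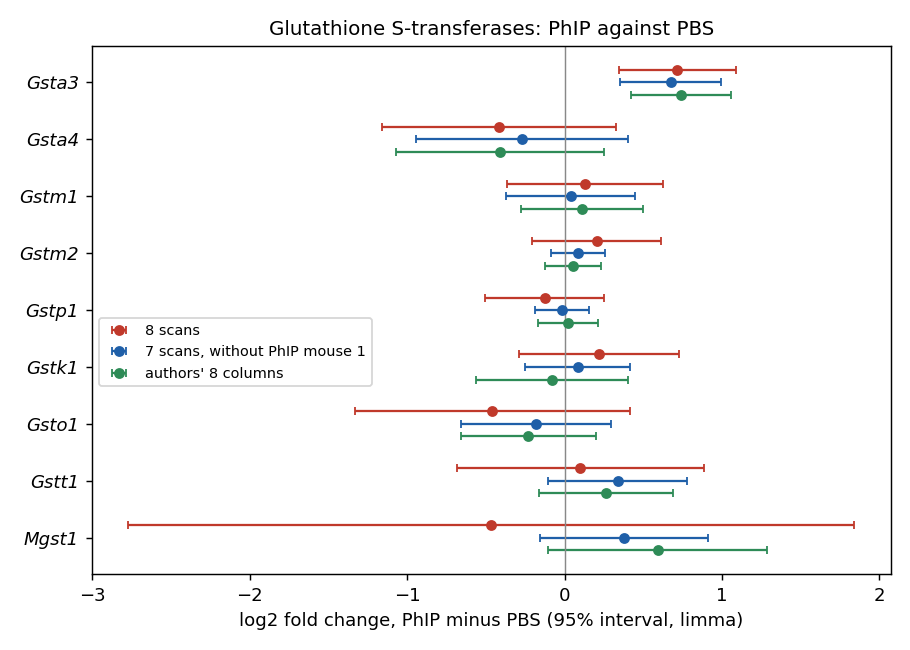
Log2 fold change of PhIP over PBS with 95% limma intervals for the 9 tested transferases, from 8 scans (red), 7 scans without PhIP mouse 1 (blue) and the authors' 8 columns turned back to intensities (green). The Gsta3 interval lies above 0 in each of the 3, the others span 0, and the Mgst1 point is -0.47, 0.38 and 0.59 in turn.

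As a group the transferases stayed near the middle of all features. With 8 arrays 5 of 9 values were above 0 and 4 below, and their median log2 fold change was 0.10 against 0.01 for all 15880 features. With 7 arrays 6 were positive, with a median of 0.08 against 0.03. With each array scaled to its percentile 75 the count of positive values fell to 2, since all features shifted down, and 4 of 9 lay above the median of all features. The median size of the difference, without sign, was 0.22 with 8 arrays and 0.18 with 7, against 0.29 and 0.15 for all features. Without the dim array, PBS mouse 2 held the highest value of Gsta4, Gstm1 and Gsto1 and the lowest of Gsta3, Gstm2 and Gstt1. PhIP mice 2 to 5 together held the highest value of 3 genes and the lowest of 3.

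**Figure D3:**
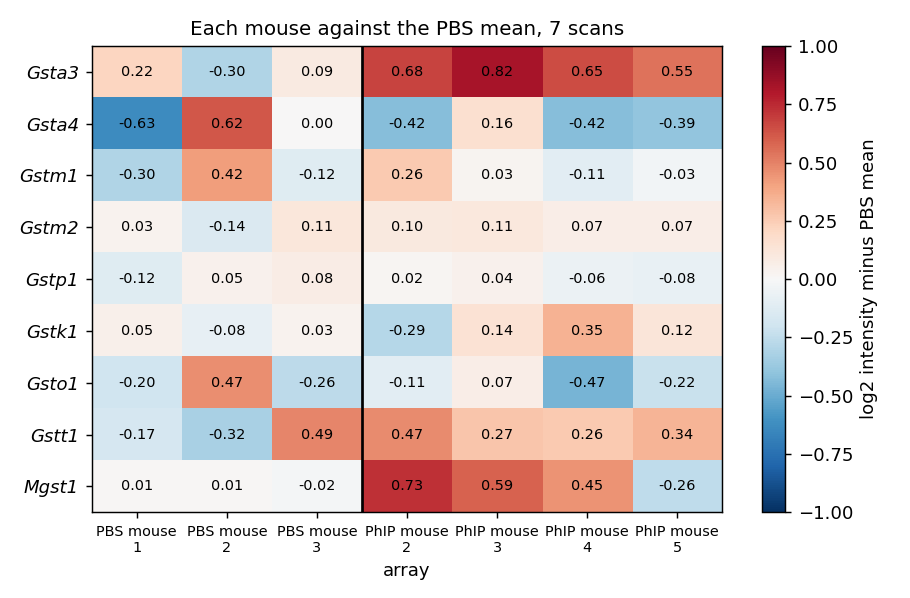
Log2 intensity of each mouse minus the mean of the PBS mice for the 9 tested transferases on the 7 scans without PhIP mouse 1, with PBS mice left of the line. Gsta3 is 0.55 to 0.82 in the 4 PhIP mice, and the PBS mice themselves range from -0.63 to 0.62 for Gsta4.

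The rest of the family was read from a list of 22 genes, of which 18 had a probe and 15 were tested. None rose or fell by limma in either set of arrays, and 0 of 15 with 8 arrays and 1 of 15 with 7 had an unadjusted p under 0.05, against 3.08% and 9.26% of all features. That gene was Gsta2 of the alpha class, with a log2 fold change of 0.01 (SE 0.40) with 8 arrays and 0.32 (SE 0.12, limma adjusted p = 0.503) with 7. Without the dim array its brighter probe was higher in every PhIP mouse than in any PBS mouse, as were 5.97% of all features, while its second probe had -0.23 (SE 0.14), so the probes pointed in opposite directions. Gsta1, its close relative, had -0.05 (SE 0.23) and 0.05 (SE 0.15) in turn.

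With 7 arrays the other mu class genes Gstm4, Gstm5 and Gstm6 had log2 fold changes of 0.01 (SE 0.13), 0.09 (SE 0.28) and 0.09 (SE 0.13). The pi class gene Gstp3 had 0.10 (SE 0.23), the omega class gene Gsto2 -0.04 (SE 0.13), the theta class genes Gstt2 and Gstt3 0.11 (SE 0.13) and 0.03 (SE 0.12), and the zeta class gene Gstz1 -0.01 (SE 0.13). Gstcd, which shares a transferase-like domain, had 0.03 (SE 0.20). Of the membrane-bound relatives, Mgst3 had 0.00 (SE 0.16), the prostaglandin E synthase Ptges 0.31 (SE 0.22), the leukotriene C4 synthase Ltc4s 0.20 (SE 0.21) and its partner Alox5ap 0.26 (SE 0.36). With 8 arrays the 15 values ran from -0.73 (Alox5ap) to 0.60 (Ltc4s), and the Alox5ap spot of PhIP mouse 1 was at the floor. Gstt4, Mgst2 and Hpgds had probes found on at most 1 array and were not tested.

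Transferases need a supply of glutathione. Of 15 genes for its synthesis, recycling and breakdown 13 were tested, and none passed in either set. Gss, which encodes glutathione synthetase, had the smallest p of the list with 8 arrays, with a log2 fold change of 0.58 (SE 0.21, limma adjusted p = 0.837) with 8 arrays and 0.49 (SE 0.17, limma adjusted p = 0.456) with 7. Its groups overlapped. Oplah, which encodes the oxoprolinase of the cycle, had 0.64 (SE 0.46) and 0.29 (SE 0.16), the peptidase gene Anpep -0.91 (SE 0.68, with the dim array at the floor) and -0.37 (SE 0.23), and Gclc, the catalytic subunit of the rate-limiting ligase, -0.43 (SE 0.37) and -0.18 (SE 0.16). With 7 arrays the groups of 1 gene of the list did not overlap, against 5.97% of all features. It was Ggct, a gamma-glutamylcyclotransferase, which had the smallest p of the list there, at 0.42 (SE 0.12), and was named after its values were seen. With 8 arrays its sign turned, to -0.28 (SE 0.84), the groups overlapped and the dim array was at the floor.

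Among genes for the export and processing of conjugates 4 of 9 were tested. The exporter Abcc1, at the floor in 1 PBS mouse and on the dim array, had 0.33 (SE 0.30) with 8 arrays and 0.52 (SE 0.21, limma adjusted p = 0.515) with 7. Abcc5, Abcg2 and the aminoacylase Acy1 had 0.02 (SE 0.27), 0.03 (SE 0.53) and -0.28 (SE 0.19) with 8 arrays. With 7 arrays they had -0.03 (SE 0.22), 0.02 (SE 0.56) and -0.20 (SE 0.14). Of 7 glutathione peroxidase and glutathione-dependent reductase or glyoxalase genes none passed. Gpx4, the peroxidase of membrane lipids, was higher in every PhIP mouse than in any PBS mouse, as were 3.66% of all features with 8 arrays and 5.97% with 7, with 0.43 (SE 0.17, limma adjusted p = 0.837) and, with 7 arrays, 0.31 (SE 0.06, limma adjusted p = 0.272). Gpx3, Glrx and Gpx1 had 0.40 (SE 0.29), 0.22 (SE 0.20) and -0.54 (SE 0.52) with 8 arrays. With 7 arrays they had 0.22 (SE 0.21), 0.14 (SE 0.16) and -0.10 (SE 0.10). Of 5 kinases and partners that bind transferases or carry their signals, none passed. Map3k5 had -0.28 (SE 0.28) with 8 arrays and -0.39 (SE 0.18) with 7. Traf2 lay at the floor in 4 of 5 PhIP mice and 1 of 3 PBS mice, so no fold is given.

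Nrf2 itself, its regulators and its targets made a list of 12 genes, of which 11 were tested. Their median log2 fold change was 0.08 with 8 arrays and 0.05 with 7. With 8 arrays 7 values were positive and 4 negative, and with 7 arrays 8 and 3. The lowest in both sets was Nqo1, named after its values were seen, at -0.89 (SE 0.56, with the dim array at the floor) and -0.50 (SE 0.30). Without the dim array 1 gene of this list passed, against 0.0315% of all features, and with 8 arrays none, against 0.0126%. It was Ephx1, which encodes microsomal epoxide hydrolase, at 1.42 (SE 0.20, limma adjusted p = 0.31) with 8 arrays and 1.54 (SE 0.09, limma adjusted p = 0.00316) with 7. The difference between the Ephx1 and Gsta3 changes was not tested.

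**Figure D4:**
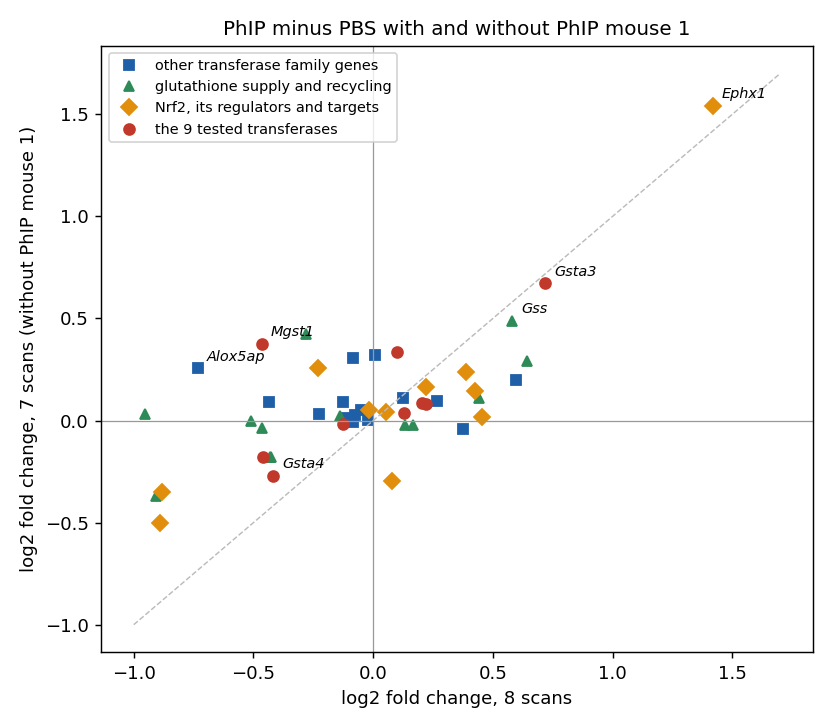
Log2 fold change of PhIP over PBS with 8 scans (horizontal) and with 7 scans without PhIP mouse 1 (vertical), 1 point per gene, for the 9 tested transferases and 3 related lists; the dashed line marks equal values. Gsta3 (0.72 and 0.67) and Ephx1 (1.42 and 1.54) lie near that line, while Mgst1 and Alox5ap change sign.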

How the data were processed

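Per the labels, cRNA carrying biotin was made from total RNA and detected in a single colour (Alexa-647). Per the file headers, GenePix Pro 4.1.1.4 quantified the 635 nm scans, subtracted a local background and normalized nothing. The deposited scanner files give intensity on a linear scale and a flag, a quality score for each spot. The authors' deposited matrix holds log2 values, 7 of its 8 columns being the log2 of a scan's intensity plus a constant that no label or header explains. Column medians were 4.68 to 5.13. Its PhIP mouse 1 column equals the scan deposited with PhIP mouse 2, and its PhIP mouse 2 column equals none, so PBS columns are not affected.

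Control and empty spots (3802) and 23 probes flagged bad were left out. Background-subtracted intensities were quantile normalized, raised to a floor of 21.25 (percentile 5 of values found above background) and put on the log2 scale. Probes found on at least 3 arrays were tested. RefSeq accessions named 23017 probes through a GRCm38.p6 gene table, and 12061 stayed unnamed. Each gene was represented by its brightest probe on average. PhIP and PBS mice were compared in limma 3.58.1 (R 4.3.3) with an intensity trend (2-sided, Benjamini-Hochberg over all features, threshold 0.05), and separately over 20020 single probes. SE and 95% intervals are limma's. The number of arrays limits precision. The steps were tested on simulated data. Figures used matplotlib 3.10.9 in Python 3.11.15.

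The genes and lists were chosen with earlier results of these data known. All 10 genes and every tested family gene were named. In other lists the rule named genes that passed, and otherwise those with the smallest p. Alternatives left out each array, changed normalization, background, filter, probe choice, weights and blocks, or used the authors' matrix.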

Additional observations from a re-analysis of the deposited data

Results flagged for a closer look

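Within the 5 PhIP mice, 4 of 9 transferases had 1 mouse far from the other 4. Chance flags about 1 in 20 such groups if all arrays are of like quality, which was not so here. In each flagged case the far value came from the array deposited with PhIP mouse 1. Its log2 intensity was 14.18 for Gstm2, above the others, and 12.05 for Gstp1, 8.464 for Gstt1 and 4.409 for Mgst1, below them. The share of probes found was also far from the other PhIP arrays, at 21.4%. The share of all features with 1 PhIP mouse so far from the others was not counted. On the dim array the median log2 distance from the PBS mean, without sign, was 0.86 for the 9 transferases and 1.06 for all features. The part of the low signal in these values was not tested.

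The authors' matrix holds a PhIP column that equals none of the scans and so enters no comparison of scans. Gsta3 had a log2 intensity of 10.57 there, above the 9.29 to 9.81 of the PBS mice in the same data.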

How the results depend on the processing

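Under 22 alternatives no transferase passed the threshold, and Gsta3, Gsta4 and Gsto1 kept their sign in all 22, although Gsto1 reached -0.00018. Gsta3 ran from 0.38 to 0.90, with adjusted p from 0.0807 to 1. Leaving out 1 array at a time gave 0.57 to 0.83 for Gsta3, -0.021 to 0.34 for Gstm1, -0.063 to 0.35 for Gstt1 and -0.77 to 0.38 for Mgst1. Signs turned as follows, and beyond the arrays entering each fit the cause was not tested. With scaling to the percentile 75, which shifted all features by -0.34, Gstm1 had -0.031, Gstk1 -0.026 and Gstt1 -0.39. With the mean of tested probes Gstm1 had -0.13 and Gstm2 -0.36. With array weights, which gave the dim array 0.0402, Gstp1 had 0.0068 and Mgst1 0.34. Gstt1 had -0.39 with slide range as a block, -0.40 within the shared range, -0.083 with a block for re-dipping and -0.051 among the re-dipped arrays. Within the arrays not re-dipped Gstm2 had -0.033, Gstt1 -0.13 and Mgst1 0.33. In the authors' matrix as deposited Gstp1 had 0.11 and Mgst1 0.64, and with its intensities Gstp1 had 0.022, Gstk1 -0.078 and Mgst1 0.59.

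Over all features 2 passed, and 0 to 5 when 1 array was left out, 5 of them without the dim array. The count was 0 with percentile scaling, with the mean of probes, and within the shared slide range, the re-dipped and the other arrays. It was 1 with re-dipping as a block, 11 with array weights, 19 in the authors' matrix and 12 with its intensities. In the related lists 0 genes passed, and 1, Ephx1, without the dim array. Ephx1 also passed with array weights, in the authors' matrix and with its intensities.

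The mouse numbers in the titles only name the mice. Deviations of same-numbered mice correlated at -0.088, 0.188 and -0.118, so they were not taken as pairs. With the replicate number as a block 0 features passed, Gsta3 had 0.79 and Gstt1 -0.036.

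With 3 PBS arrays, no transferase's p says that PhIP left it unchanged. Genes near background, such as Gstm3, are limited by signal.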
